A study of Mus musculus with 7 samples.

Results

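De novo lipogenesis was described through 10 genes, the rows of the deposited gene table named Srebf1, Mlxipl, Acly, Acaca, Acacb, Fasn, Scd1, Elovl5, Elovl6 and Me1, out of 54532 genes listed. RNA had been sequenced from livers of old C57BL/6 mice in 7 libraries. The 3 MDL-800 libraries came from animals whose standard diet followed supplementation with MDL-800, a small-molecule activator of the NAD-dependent deacetylase SIRT6, and the 4 control libraries from animals on the standard diet alone. Age in weeks, dose, duration, feeding state and hour of collection are not given in the sources used here, and whether every library is its own animal is not labelled, so the p-values reflect library-to-library spread, which may be technical. The comparison addresses how the livers of MDL-800 animals differed from those of controls.

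De novo lipogenesis turns carbon from carbohydrate into fatty acids in the cytosol. Citrate that leaves the mitochondria is cleaved to acetyl-CoA, which is carboxylated to malonyl-CoA and built into palmitate by fatty acid synthase with NADPH as the reductant, and palmitate is then elongated and desaturated. In liver the pathway is best known for its increase after feeding, when insulin acts through SREBP-1c, encoded by Srebf1, and glucose metabolites act through ChREBP, encoded by Mlxipl.

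Recovered whole reads summed to 17600066 to 19920469 per library, and each of the 10 genes rested on at least 275 reads in every library. All 10 averaged 1 FPKM or more (fragments per kilobase of gene per 1e6 fragments), the filter that 11394 genes passed. MDL-800 2 and control 1 held reads of Y-linked genes (Uty, Ddx3y, Eif2s3y, Kdm5d), and the other 5 libraries held 0, while the labels used here state no sex. Those 5 were not alike in Xist, the transcript of the inactive X chromosome, which was at 49.98 and 57.28 FPKM in MDL-800 1 and 3 and at 60.45, 0 and 63.51 FPKM in control 2, 3 and 4, so control 3 had neither. The hepatocyte markers fixed for the check were all present, with Alb, the gene of albumin, at 38820 to 42844 FPKM in MDL-800 and 35737 to 62511 FPKM in control. Adipose tissue also makes fatty acids, and of 10 adipocyte markers Lep was listed at 0 in every library. Adipoq, which encodes adiponectin, had 0 FPKM in all 3 MDL-800 libraries, against 0 to 1.52 FPKM in control, Plin1 reached at most 0.219 FPKM, and the summed level of the list was 10.3 to 18.4 FPKM in MDL-800 and 5.07 to 29.4 FPKM in control. Control 4 gave the highest Adipoq, Plin1 and summed level, and the other controls summed to at most 12.8 FPKM. Plin4, a lipid droplet protein gene on the same list, was at 5.14, 3.69 and 7.84 FPKM in MDL-800, against 3.13, 0.356, 0.342 and 2.30 FPKM in control. The groups did not overlap, as for 4.03% of genes tested in this direction, and Plin4 was named after its values were seen. Of 6 adipocyte markers tested, 4 had a log2 fold change below 0 in MDL-800 against control, with a median of -0.08.

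The promoter windows below are shown because they belong to the only gene of the 10 whose groups did not overlap (Elovl5), to the gene of the central synthase (Fasn) and to the only gene with a log2 fold change below 0 (Mlxipl). They are from RefSeq, build GRCm38.p6, run 5′ to 3′ on the strand of the gene from 250 bases before to 50 bases after an annotated start, and have in capitals every CACGTG (the palindromic E-box), CCAAT (the CCAAT box) and GGGCGG (the GC box) on either strand.
Elovl5, chr9:77917115-77917414, plus strand: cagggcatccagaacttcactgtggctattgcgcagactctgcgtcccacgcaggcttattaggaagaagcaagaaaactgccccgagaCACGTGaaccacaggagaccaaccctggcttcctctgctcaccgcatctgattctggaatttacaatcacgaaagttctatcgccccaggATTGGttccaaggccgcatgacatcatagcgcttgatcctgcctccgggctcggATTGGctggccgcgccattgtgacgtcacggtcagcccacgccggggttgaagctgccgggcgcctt
Fasn, chr11:120824498-120824797, minus strand: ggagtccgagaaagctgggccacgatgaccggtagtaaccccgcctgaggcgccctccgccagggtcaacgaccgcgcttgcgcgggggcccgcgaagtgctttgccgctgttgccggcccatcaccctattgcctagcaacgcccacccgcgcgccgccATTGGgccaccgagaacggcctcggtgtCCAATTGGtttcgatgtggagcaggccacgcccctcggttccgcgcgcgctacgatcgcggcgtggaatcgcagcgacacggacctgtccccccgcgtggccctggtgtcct
Mlxipl, chr5:135089640-135089939, plus strand: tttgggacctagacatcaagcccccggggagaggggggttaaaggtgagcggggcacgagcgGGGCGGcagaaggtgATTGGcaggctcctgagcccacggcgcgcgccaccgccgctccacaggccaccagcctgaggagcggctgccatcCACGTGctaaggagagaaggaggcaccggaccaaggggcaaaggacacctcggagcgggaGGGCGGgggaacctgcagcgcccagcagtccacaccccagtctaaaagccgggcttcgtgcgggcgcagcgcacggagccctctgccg
The Elovl5 window held 1 E-box and 2 CCAAT boxes, and both CCAAT boxes are on the reverse strand and read as ATTGG here. The Fasn window held 3 CCAAT boxes, 2 of which overlap each other and are printed as 1 run of capitals. The Mlxipl window shown held 1 E-box, 1 CCAAT box and 2 GC boxes, and the window of a second Mlxipl start, 17001 bases downstream, held none of these letters. Windows were found for 9 of the 10 genes, 13 windows in all since some genes have several starts. CACGTG was in 2 of these 13, CCAAT in 8 and GGGCGG in 5, against 7.15%, 37.4% and 35.7% of all 32851 windows in the table. A match of letters is a description of the window and does not show that a factor binds there.

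Of the 10 genes, 9 had a log2 fold change above 0 in MDL-800 livers against controls, with a median of 0.61 on the log2(FPKM + 1) scale, but no single gene passed the test. The highest estimates belonged to the desaturase gene Scd1 (1.09), the elongase genes Elovl5 (1.03) and Elovl6 (0.93) and the malic enzyme gene Me1 (0.93). The regulators had the estimates smallest in size, Srebf1 at 0.18 and Mlxipl at -0.31. Under limma with Benjamini-Hochberg adjustment over all genes the adjusted p was 0.95 for each of the 10, and 0 of 11394 genes tested (0%) passed. At an unadjusted p under 0.05 there were 553 genes, or 4.85%. Over all genes tested, 54.2% had an estimate above 0 and the median was 0.02. An estimate of at least 0.5 was reached by 6 of the 10 genes, against 3.17% of genes tested. That share was not matched for level or spread, and the pseudocount shrinks estimates of genes at low levels. The 10 averaged 5.57 (Acaca) to 1033 FPKM (Scd1), while the median over genes tested was 5.01 to 5.28 FPKM by library.

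Among the regulators, Srebf1 encodes the precursor of SREBP-1, the transcription factor that acts on lipogenic genes when insulin is high (chromosome 11, 60199089 to 60222581, minus strand, GRCm38). Its level was 45.4, 57.6 and 47.1 FPKM in MDL-800 1, 2 and 3, against 52.7, 45.9, 37.3 and 40.9 FPKM in control 1, 2, 3 and 4. The groups overlapped, and in each group the library with Y-linked reads was the highest. The log2 fold change was 0.18 with a standard error of 0.16 (95% interval -0.20 to 0.56), and it was 0.07 without MDL-800 2 and 0.10 without control 3. The gene table does not separate the SREBP-1a and SREBP-1c transcripts, and 109 exonic bases are shared with Rai1 on the opposite strand.

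Mlxipl encodes ChREBP, the carbohydrate-responsive factor that works as a partner of Mlx (chromosome 5, 135089890 to 135138382, plus strand). It stood at 30.3, 46.5 and 34.9 FPKM in the MDL-800 livers, against 54.4, 35.9, 52.7 and 42.3 FPKM in the control livers. MDL-800 1 and MDL-800 3 lay below all 4 controls and MDL-800 2 lay among them. The log2 fold change was -0.31 with a standard error of 0.21 (95% interval -0.80 to 0.18). It stayed below 0 in each of the 19 alternatives tried, from -0.48 without MDL-800 2 to -0.18 without MDL-800 1. Some of these alternatives leave the estimate unchanged by design. The exons of Mlxipl share 235 bases with the antisense gene Gm43500, and the library chemistry does not mark strand.

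**Figure D1:**
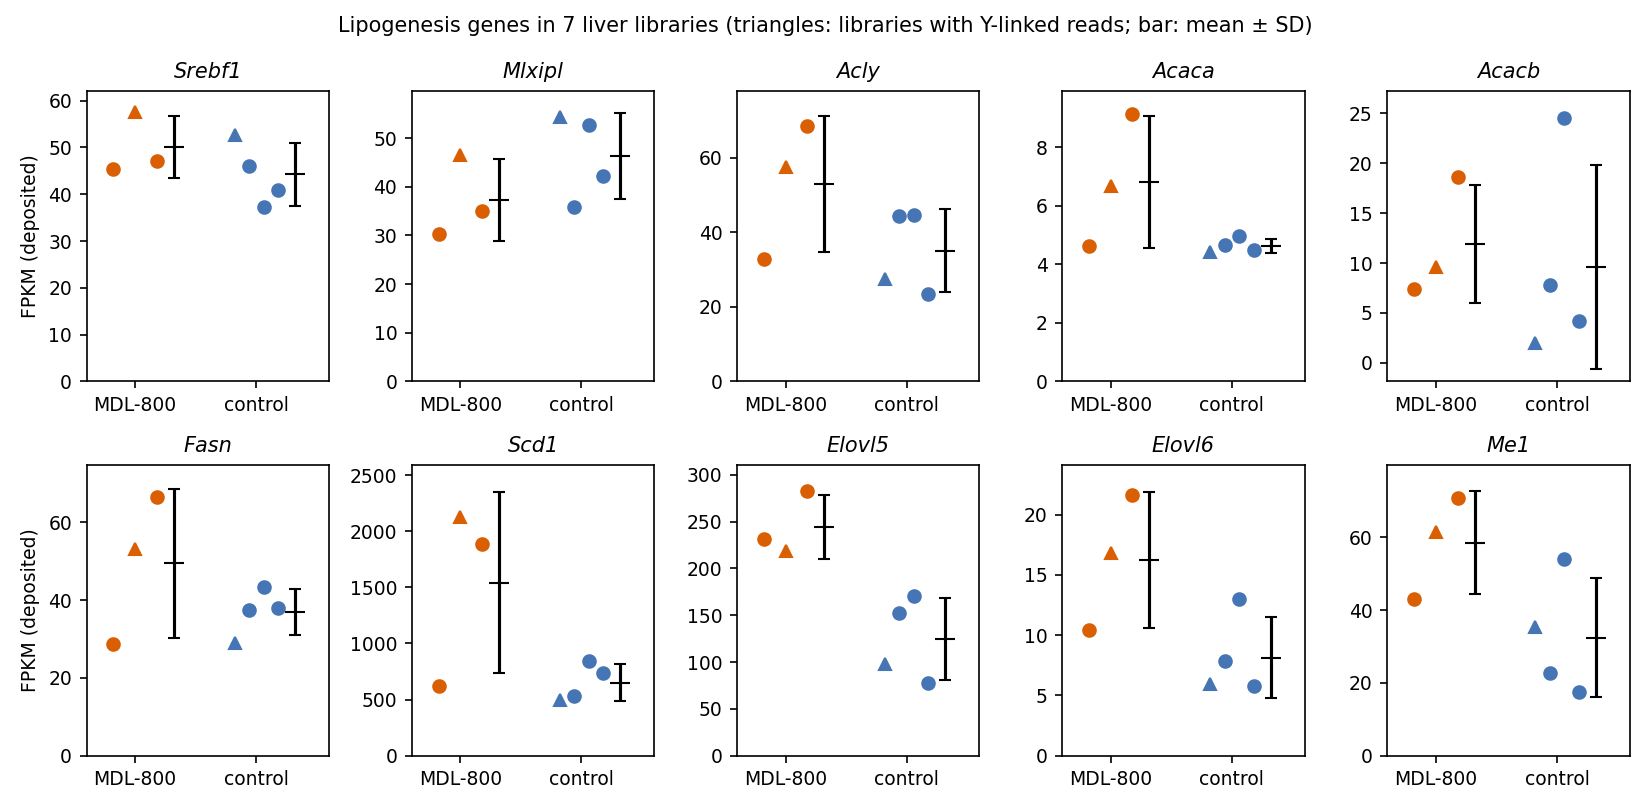
Deposited FPKM of each gene in the 3 MDL-800 libraries (left of each panel) and the 4 control libraries (right), with triangles for libraries with Y-linked reads and bars for mean ± SD. The Elovl5 values of 219 to 283 FPKM in MDL-800 lie above those of 78.0 to 170 FPKM in control, and in the other panels the groups overlap.

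The enzymes that make the malonyl-CoA used for synthesis were next examined. Acly encodes ATP citrate lyase, which releases cytosolic acetyl-CoA from citrate (chromosome 11, 100476353 to 100528000, minus strand). It was at 32.8, 57.5 and 68.6 FPKM in MDL-800, against 27.5, 44.4, 44.7 and 23.6 FPKM in control. MDL-800 2 and MDL-800 3 were above every control, whereas MDL-800 1 was within the control range. The log2 fold change was 0.57 with a standard error of 0.33, 0.88 without MDL-800 1 and 0.36 without MDL-800 3.

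Acaca encodes acetyl-CoA carboxylase 1, the cytosolic enzyme whose malonyl-CoA feeds synthesis (chromosome 11, 84129672 to 84401651, plus strand). Its values were 4.64, 6.69 and 9.14 FPKM in MDL-800, against 4.43, 4.66, 4.97 and 4.49 FPKM in control. The control libraries differed little from each other (SD 0.241 FPKM, n = 4), the MDL-800 libraries more (SD 2.25 FPKM, n = 3), and MDL-800 1 again lay in the control range. The log2 fold change was 0.43 with a standard error of 0.19 and an unadjusted limma p of 0.0557, and it was 0.23 without MDL-800 3.

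Acacb encodes acetyl-CoA carboxylase 2 at the mitochondrial outer membrane, where malonyl-CoA restrains fatty acid entry through CPT1 (chromosome 5, 114146535 to 114250761, plus strand). It ranged most of the 10 genes, 7.43, 9.59 and 18.7 FPKM in MDL-800 against 1.97, 7.78, 24.5 and 4.15 FPKM in control. The highest and the lowest value were both controls, control 3 and control 1, a 12.4-fold range over the 7 libraries. The log2 fold change of 0.66 had a standard error of 0.71, was 1.24 without control 3, was 0.31 without MDL-800 3 and was 0.20 without control 1.

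Fasn encodes fatty acid synthase, which assembles palmitate (chromosome 11, 120805846 to 120824547, minus strand). It was at 28.8, 53.2 and 66.5 FPKM in MDL-800, against 29.1, 37.4, 43.3 and 37.9 FPKM in control. MDL-800 1 was the lowest of all 7 libraries and the other MDL-800 libraries were the highest. The log2 fold change was 0.35 with a standard error of 0.29, 0.69 without MDL-800 1 and 0.10 without MDL-800 3.

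The desaturation and elongation enzymes, which act on palmitate or on other fatty acids, came next. Scd1 encodes stearoyl-CoA desaturase 1, which makes monounsaturated fatty acids and was the most abundant of the 10 transcripts (chromosome 19, 44394451 to 44407709, minus strand). Its level was 619, 2123 and 1888 FPKM in MDL-800, against 493, 533, 844 and 734 FPKM in control. MDL-800 2 and MDL-800 3 were more than any control, and MDL-800 1 was between the controls. The standard error of its log2 fold change was 0.45 and the 95% interval ran from 0.02 to 2.16. The estimate was 0.64 in the 5 libraries without Y-linked reads and 1.65 without MDL-800 1. Its close paralog Scd2, with which reads could have been shared, reached at most 4.72 FPKM in any library.

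Elovl5 encodes an elongase of polyunsaturated fatty acids (chromosome 9, 77917364 to 77984519, plus strand; promoter above). It was at 231, 219 and 283 FPKM in MDL-800, against 98.3, 152, 170 and 78.0 FPKM in control. Every MDL-800 library was above every control, which held for 4.03% of all genes tested (6.45% in either direction), and for no other gene of the 10. The MDL-800 mean was 244 ± 33.9 FPKM (SD, n = 3), against a control mean of 125 ± 43.5 FPKM (SD, n = 4), with a standard error of 0.29 and a 95% interval of 0.34 to 1.72 for the log2 fold change. Elovl5 ranked 85 of 11394 genes in the limma test, and the estimate ran from 0.83 with a replicate block to 1.20 without control 3.

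Elovl6 encodes the elongase that converts palmitate to stearate (chromosome 3, 129532355 to 129638495, plus strand). It was at 10.4, 16.8 and 21.6 FPKM in MDL-800, against 5.98, 7.85, 13.0 and 5.77 FPKM in control. Control 3 alone stood above an MDL-800 library, MDL-800 1. Its exons share 34 bases with Gm35986 on the opposite strand. The standard error was 0.32, and the estimate ran from 0.70 without MDL-800 3 to 1.20 without MDL-800 1, and was 1.15 without control 3.

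Me1 encodes cytosolic malic enzyme, a source of NADPH for synthesis (chromosome 9, 86581371 to 86695953, minus strand). It was at 43.1, 61.4 and 70.9 FPKM in MDL-800, against 35.4, 22.7, 54.1 and 17.6 FPKM in control. As with Elovl6, the overlap came from control 3 and MDL-800 1, and 30 exonic bases are shared with an opposite-strand gene, A330041J22Rik. The standard error was 0.39, the 95% interval ran from 0.02 to 1.84, and the estimate was 1.21 without control 3.

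**Figure D2:**
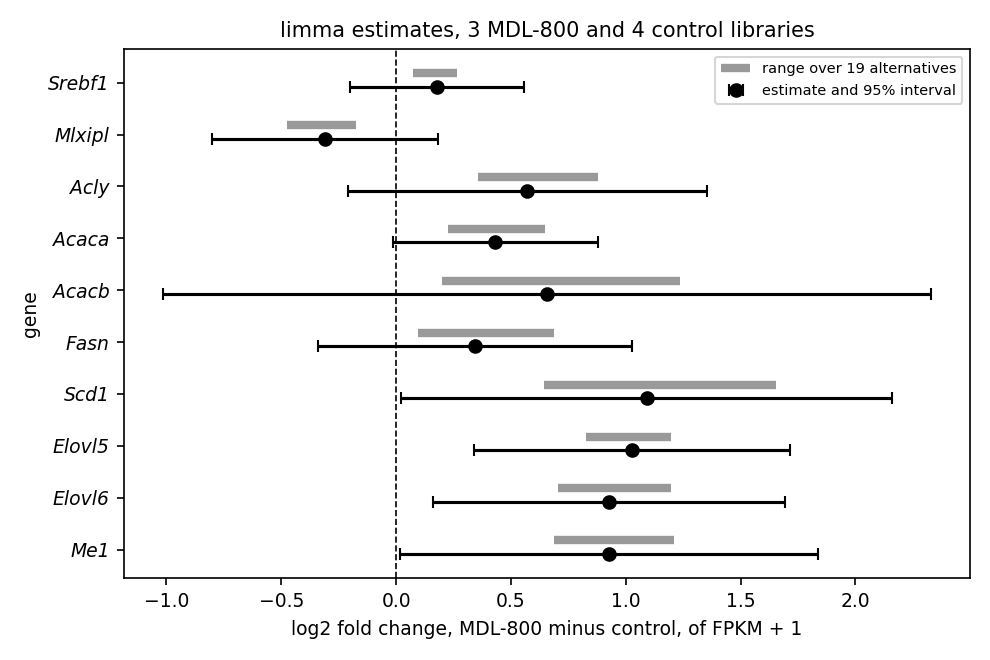
Log2 fold change of FPKM + 1, MDL-800 minus control, from limma for each gene (point, with its 95% interval) and the range of the estimate over 19 alternatives (grey bar). Mlxipl at -0.31 is the only estimate below 0, and no grey bar crosses 0, though some alternatives leave the estimate unchanged by design.

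At an unadjusted limma p under 0.05, 4 of the 10 genes (Elovl5, Elovl6, Scd1 and Me1) were higher in MDL-800 and 0 lower, against 3.23% and 1.62% of all genes tested. Their unadjusted limma p was 0.00962 for Elovl5, 0.0243 for Elovl6, 0.0466 for Scd1 and 0.0467 for Me1. The number of the 10 genes under an unadjusted limma p of 0.05 changed when 1 library was left out. The number among all 11394 genes tested, given in brackets, changed too. Without MDL-800 1, 2 or 3 it was 7 (411), 1 (406) and 1 (274). Without control 1, 2, 3 or 4 it was 1 (948), 2 (511), 5 (671) and 1 (371). Once Y-linked transcripts were modelled it was 2 (828), and in the 5 libraries without Y-linked reads it was 1 (615).

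The MDL-800 libraries differed from each other over the 10 genes. For 7 of them (Acly, Acaca, Fasn, Scd1, Elovl5, Elovl6 and Me1) at least 2 of the 3 MDL-800 libraries were above all 4 controls, as for 13.3% of genes tested. In 6 of these 7 the exception was MDL-800 1. The mean of the 10 genes, each centred on its own mean over the 7 libraries on the log2 scale, was -0.14, 0.48 and 0.67 in MDL-800 1, 2 and 3, against -0.47, -0.24, 0.24 and -0.53 in control 1, 2, 3 and 4. By this mean control 3 was above MDL-800 1. MDL-800 3 held the highest value of 6 genes, and control 4 the lowest value of 4.

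**Figure D3:**
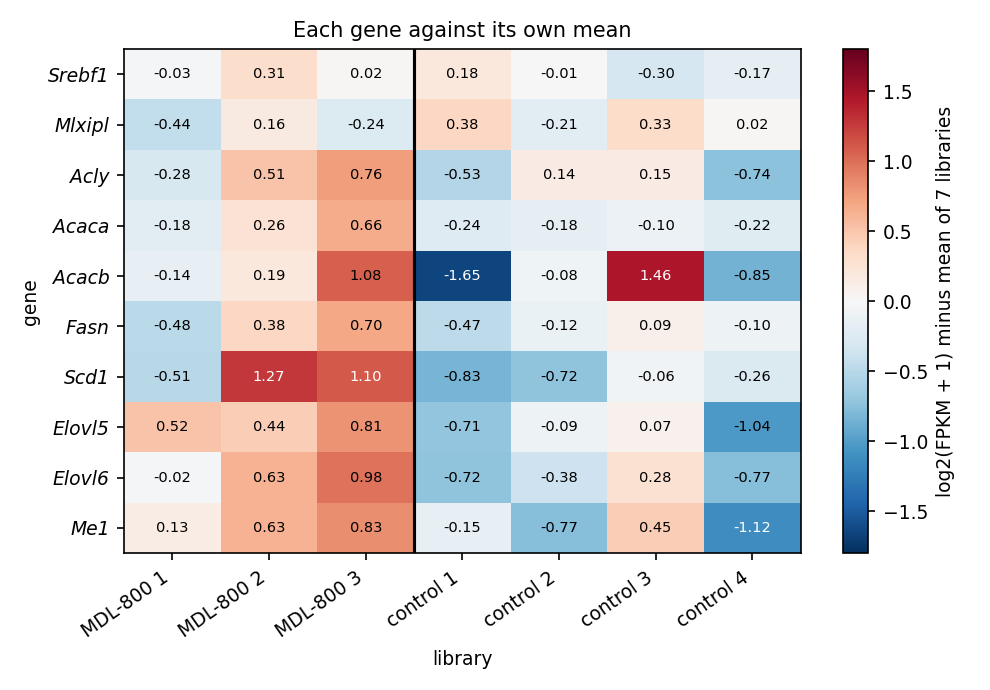
Each gene's log2(FPKM + 1) in each library minus its mean over the 7 libraries, MDL-800 left of the line and control right. MDL-800 2 is above the mean for 10 genes and MDL-800 3 for 9, MDL-800 1 for 2 and control 3 for 7.

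Split by Y-linked reads, 9 of the 10 genes had a difference above 0 in both sets of libraries, and Mlxipl one below 0 in both. In the pair of libraries with such reads, 1 in each group, 9 of 10 genes were higher in MDL-800 2 than in control 1 (52% of all genes tested), with Scd1 4.31 times, Acacb 4.87 times and Elovl6 2.81 times the control value. In the other 5 libraries the median log2 fold change was 0.40 with 9 of 10 estimates above 0. MDL-800 1 and MDL-800 3 both exceeded control 2, 3 and 4 for Elovl5 alone (13.2% of genes tested). Both lay below these controls for Mlxipl, at 30.3 and 34.9 FPKM against 35.9 to 52.7 FPKM. The share of genes tested that lay below in this way was not counted. Control 3, which lacked Xist, is 1 of these 5 libraries. The clock-controlled transcripts Dbp and Tef moved with the split, though not all genes of the clock list did so. Dbp was at 31.1 FPKM in MDL-800 2 and 18.8 FPKM in control 1 but at most 1.94 FPKM in the other 5. Tef was at 26.3 and 19.7 FPKM but at most 10.1 FPKM, and the part of these genes in the split was not tested. Dbp and Tef were named after their values were seen, and both share exonic bases with opposite-strand genes. The limma term for Y-linked reads itself was past an adjusted p of 0.05 for none of the 10, against 276 of the genes tested (2.42%). Srebf1 (0.33 higher in libraries with such reads, standard error 0.12, unadjusted p = 0.0317) was the only 1 of the 10 under an unadjusted p of 0.05, against 22.7% of genes tested.

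Since FPKM is per length, levels can be set beside each other within a library. Over the 7 libraries Scd1 averaged 1033 ± 678 FPKM (SD, n = 7) and Elovl5 176 ± 73.7 FPKM. Srebf1, Me1, Acly, Mlxipl and Fasn followed at 46.7 ± 6.83, 43.6 ± 19.8, 42.7 ± 16.3, 42.4 ± 9.22 and 42.3 ± 13.6 FPKM, and these 5 did not differ beyond their spread. Elovl6 at 11.6 ± 5.92, Acacb at 10.6 ± 8.09 and Acaca at 5.57 ± 1.76 FPKM came last. Acacb did not differ from either beyond its spread, since it was below Acaca in control 1 and control 4, and its mean was below that of Elovl6 in MDL-800 (11.9 against 16.3 FPKM) and above it in control (9.60 against 8.14 FPKM). The length used for Acaca, 17074 bases, is the longest of the 10 and enters its level as a divisor.

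Ratios within a library do not depend on how that library was scaled. The log2 ratio of Scd1 to Fasn was 4.43, 5.32 and 4.83 in MDL-800, against 4.08, 3.83, 4.28 and 4.27 in control. Every MDL-800 library was higher, though MDL-800 1 and control 3 lay close together. How often the ratios of other gene pairs separate in this way was not counted. The log2 ratio of Srebf1 to Mlxipl was 0.58, 0.31 and 0.43 in MDL-800, against -0.04, 0.36, -0.50 and -0.05 in control, with overlap through control 2. Elovl5 over Elovl6 averaged 3.96 ± 0.44 in MDL-800 (SD, n = 3) and 3.95 ± 0.26 in control (SD, n = 4). Acaca over Acacb was -0.68, -0.52 and -1.03 in MDL-800, within the control values of 1.17, -0.74, -2.30 and 0.11. These ratios were chosen with earlier results of these data known, are descriptions and were not tested.

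**Figure D4:**
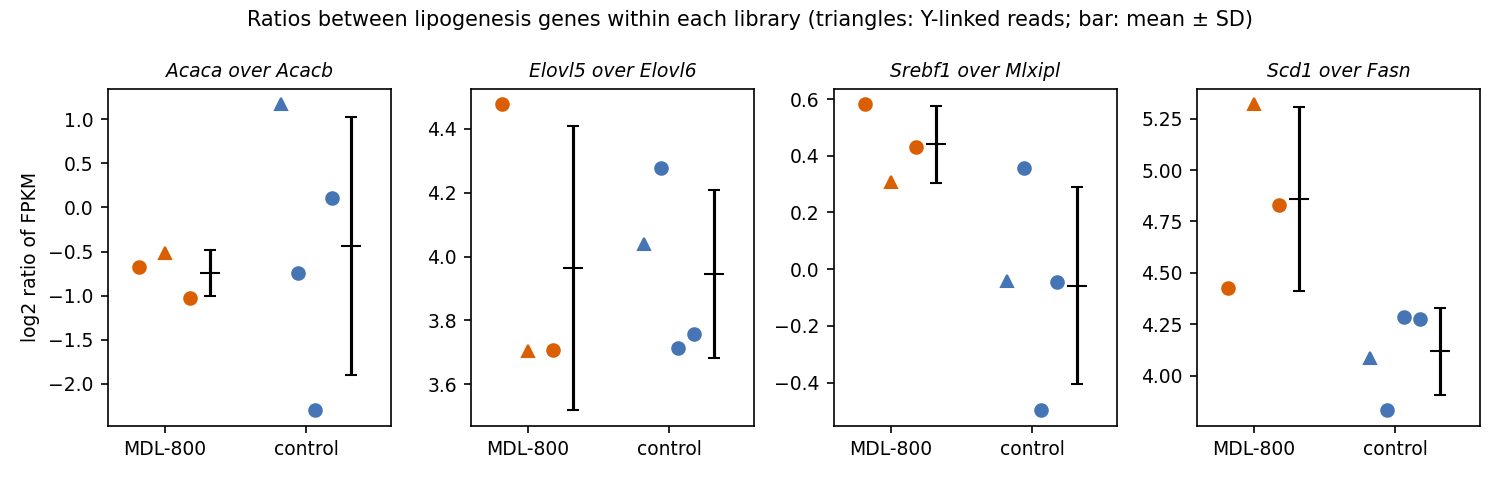
Log2 ratio of FPKM between pairs of genes within each library, MDL-800 left and control right, with triangles for libraries with Y-linked reads and bars for mean ± SD. For Scd1 over Fasn the MDL-800 values of 4.43 to 5.32 lie above the control values of 3.83 to 4.28. The share of other gene pairs that separate in this way was not counted.

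The genes around the pathway were counted in lists, of which none had a gene past the limma threshold. Among 14 genes of substrate supply, 12 had an estimate above 0 and 3 an unadjusted p under 0.05, all higher, with a median of 0.25. Pklr, which encodes liver pyruvate kinase and is a known ChREBP target, was at 82.0, 113 and 123 FPKM in MDL-800, against 73.9, 32.4, 61.4 and 44.3 FPKM in control. The groups did not overlap, as for 4.03% of genes tested in this direction. The log2 fold change was 1.03 (standard error 0.30), and Pklr shares 711 exonic bases with Hcn3 on the opposite strand. The pentose phosphate enzymes Tkt and Taldo1 were at 0.33 and -0.30.

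Of 11 genes of glycerolipid and acyl-CoA synthesis, 10 were above 0, with a median of 0.23. Gpam, which encodes the mitochondrial acyltransferase that begins glycerolipid synthesis, was at 23.6, 54.3 and 47.9 FPKM in MDL-800, against 16.8, 19.8, 28.3 and 10.04 FPKM in control, and MDL-800 1 lay below control 3. The acyl-CoA synthetase genes Acsl1 and Acsl5 and the triglyceride enzyme gene Dgat2 had estimates of 0.53, 0.45 and 0.29. Acsl1 and Acsl5 overlap exons of opposite-strand genes.

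Of 10 other elongation and desaturation genes tested, 7 were above 0, with a median of 0.11. Elovl2, an elongase of long polyunsaturated fatty acids, was at 167, 202 and 152 FPKM in MDL-800, against 151, 80.1, 131 and 100 FPKM in control. The groups did not overlap, as for 4.03% of genes tested in this direction, though MDL-800 3 and control 1 lay close together. Elovl1, which acts on very long saturated chains, was at 12.9, 11.3 and 13.1 FPKM in MDL-800, against 13.5, 17.6, 17.1 and 17.4 FPKM in control, also without overlap and in the other direction, as for 2.42% of genes tested. Fads2, the delta-6 desaturase gene, and Hsd17b12, which encodes the ketoacyl reductase of elongation, had estimates of 0.80 and 0.29. Elovl3 was at 0.542, 108 and 0.419 FPKM in MDL-800 and 141, 1.995, 1.796 and 0.863 FPKM in control, high in the 2 libraries with Y-linked reads, and was named after its values were seen.

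The regulators around SREBP-1 and ChREBP had medians near that of all genes. For 10 genes of SREBP processing and turnover 7 were above 0, with a median of 0.06, and Erlin2, Insig2, Mbtps1 and Cideb were at 0.32, 0.42, 0.13 and 0.15. For 9 tested genes of other transcriptional regulators 5 were above 0, with a median of 0.02. Pparg, the nuclear receptor gene of fat storage, was at 6.82, 7.06 and 8.82 FPKM in MDL-800 against 4.11, 7.07, 2.37 and 4.98 FPKM in control, and Usf1, Usf2 and Nr1h2 were at -0.28, 0.25 and -0.13. For 8 tested regulators of acetyl-CoA carboxylase 3 were above 0, with a median of -0.08. Prkaa2, a catalytic subunit of AMPK, which inhibits the carboxylases, was at 7.13, 8.66 and 7.71 FPKM in MDL-800 against 7.13, 4.74, 6.26 and 4.51 FPKM in control. Prkag1, Mid1ip1 and Prkag2 were at -0.21, -0.27 and 0.14. Cideb, Usf2, Prkag1, Prkag2 and Mid1ip1, like Elovl1, Nr1d1 and Cry2, share exonic bases with opposite-strand genes, and Usf1 with a same-strand gene, so their reads are uncertain.

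The cholesterol synthesis genes that SREBP-2 governs were divided, 8 of 18 above 0 and 10 below, with a median of -0.05, and -0.45 in the 5 libraries without Y-linked reads. Sc5d and Mvk were at 0.48 and -0.27. The difference from the 10 genes was not tested.

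**Figure D5:**
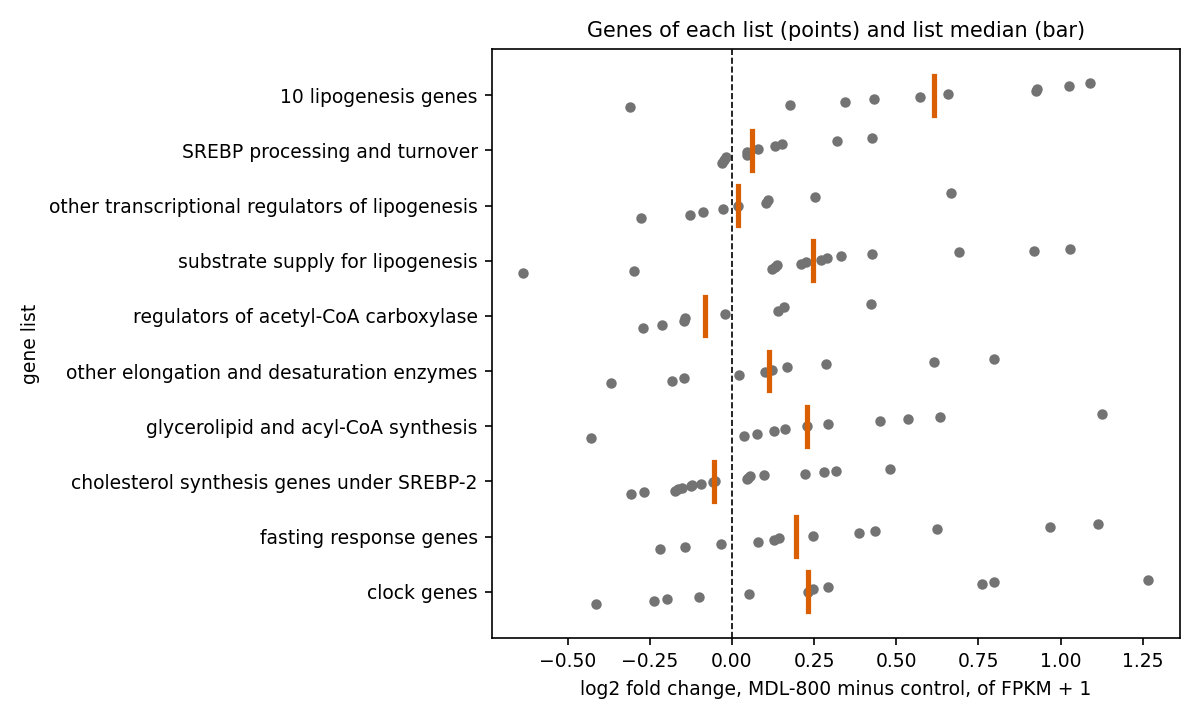
Log2 fold change of FPKM + 1, MDL-800 minus control, of each tested gene (points) in each list (rows), with the list median as an orange bar. The median of the 10 lipogenesis genes, 0.61, is the highest of the lists drawn, and substrate supply at 0.25, clock genes at 0.23 and glycerolipid synthesis at 0.23 follow.

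Feeding and clock genes were read because lipogenic transcripts are known to follow meals and the hour of day. Of 12 fasting response genes 9 were above 0, with a median of 0.19. Cpt1a, the gate of mitochondrial fatty acid oxidation, was at 88.9, 109 and 91.0 FPKM in MDL-800 against 85.5, 51.2, 59.0 and 56.8 FPKM in control. Its groups did not overlap, as for 4.03% of genes tested in this direction. Fgf21, Pdk4 and Ppargc1a had estimates of 1.11, 0.97 and 0.25. Fgf21 was at 1.72 in the 5 libraries without Y-linked reads, and Pdk4 ran from 0.44 (MDL-800 3 left out) to 1.49 (MDL-800 2 left out). Of 11 tested clock genes 7 were above 0. Nr1d1, which encodes the repressor REV-ERB alpha, was at 9.01, 41.6 and 21.3 FPKM in MDL-800 against 40.8, 4.19, 1.698 and 9.28 FPKM in control, and Nr1d2, Cry2 and Npas2 were at 0.76, 0.23 and -0.41. Among other cell types, 9 of 10 macrophage markers were below 0, with a summed level of 195 to 685 FPKM in MDL-800 and 220 to 2016 FPKM in control. Control 2 alone gave the 2016 FPKM, and the other controls, at 220 to 649 FPKM, lay within the MDL-800 range. Of 5 tested lymphocyte markers 4 were below 0, with a median of -0.72 and a summed level of 4.06 to 22.8 FPKM in MDL-800 and 10.1 to 64.6 FPKM in control, where control 4 was highest and the others reached at most 25.2 FPKM. Endothelial markers were above 0 for 8 of 10, with a median of 0.33 and a summed level of 37.8 to 51.2 FPKM in MDL-800 and 19.1 to 55.8 FPKM in control. Control 4 alone gave the 19.1 FPKM, and the other controls, at 31.3 to 55.8 FPKM, spanned the MDL-800 range. Stellate cell markers were above 0 for 8 of 10 with a median of 0.19, and cholangiocyte markers for 2 of 4 tested with a median of 0.18. The summed stellate level was also lowest in control 4, at 23.7 FPKM, against 46.6 to 71.2 FPKM in the other controls and 47.1 to 79.6 FPKM in MDL-800. The part of feeding state, hour of collection or cell composition in the estimates of the 10 genes was not tested, and in bulk liver fewer cells of a type and less RNA per cell cannot be told apart.

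Genes outside the 10 whose centred profile over the 7 libraries was among the closest to the mean profile of the 10, out of 5890 genes averaging 5 FPKM or more, were Dlat, Pdk1, Pcyt1a, Acsl5 and Agmo. Their root mean square differences from it were 0.16, 0.16, 0.20, 0.20 and 0.20 on the log2 scale, where a flat profile would be at 0.43. Of the 10 genes themselves, Acly (0.18), Elovl6 (0.20) and Acaca (0.21) were nearest to their common mean, and Acacb (0.68) and Mlxipl (0.54) farthest. Dlat, which encodes a subunit of the pyruvate dehydrogenase complex, was at 16.7, 19.5 and 22.0 FPKM in MDL-800, against 11.6, 12.1, 15.3 and 10.1 FPKM in control. Pdk1, a kinase that inhibits that complex, was at 16.0, 22.3 and 20.4 FPKM in MDL-800, against 11.6, 11.3, 20.5 and 10.5 FPKM in control.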

How the data were processed

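Gene-level FPKM for 7 libraries was deposited by the authors as 1 table, which also holds coordinates and lengths per the file headers. TopHat2 2.0.14, Bowtie2 2.1.0, Cufflinks 2.2.1 and build mm9 are named in the submitters' processing notes, and which tool counted reads is not stated there. Coordinates in the table match GRCm38 (chromosome and start equal those of GENCODE M21 for 53842 of 54495 common identifiers) and are given so. Per the labels' protocols, cDNA was amplified with a low-input SMARTer kit and sheared, so strand is not marked.

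FPKM times length was a whole multiple of 1 step in each library (within 0.01 for 100% of values above 0), which gave whole reads. Their sum was 0.995 to 1.28 times the deposited denominator. The FPKM values were tested as deposited, as log2(FPKM + 1), over the 11394 genes averaging 1 FPKM or more, with limma 3.58.1 in R 4.3.3 (lmFit, eBayes with a trend, two-sided, Benjamini-Hochberg, threshold 0.05). The pseudocount shrinks the fold change of genes at low levels. The procedure was tested on simulated data. All library pairs differed by more than sampling noise (chi-square per degree of freedom of at least 22.1).

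The 10 genes, the lists and the comparisons were chosen with earlier results of these data known. All 10 genes are named, with up to 4 genes of each list by smallest p and the 6 genes most like the mean profile, apart from some genes that are not reported here. Exceptions chosen after values were seen were Elovl3, Dbp, Tef, Plin4, Thrsp, Pnpla3 and the neighbours of Elovl5. Alternatives were a pseudocount of 0.1, no filter, a minimum mean of 5 FPKM, median scaling, quantile normalization, summed reads as denominator, limma voom on recovered reads, array weights, a replicate block, a robust prior, a term for Y-linked transcripts, the 5 libraries without Y-linked reads, and leaving out each library. Figures used matplotlib 3.10.9 (Python 3.11.15).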

Additional observations from a re-analysis of the deposited data

How the results depend on the processing

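Each of the 10 genes kept the sign of its estimate under all 19 alternatives. The sign could not change with no filter, a minimum mean of 5 FPKM or a robust prior, which leave the estimate as it was. The replicate block gave the same estimates as leaving out control 4. None of the 10 passed a limma adjusted p of 0.05 under any alternative (the lowest was 0.482, for Elovl5 with array weights). With single libraries left out the median of the 10 was lowest at 0.33 (MDL-800 3 out) and highest at 0.93 (control 3 out), and 9 of 10 estimates were above 0 under every alternative. The number of genes past the threshold was 0 to 1 over the same fits, 1 without MDL-800 1 and 1 without control 1, neither of them a gene of the 10. Among genes of the lists, Cideb turned to -0.014 without MDL-800 2 (highest 0.28, without control 1) and Cry2 to -0.0036 without MDL-800 2 (highest 0.38, without MDL-800 1). Of 36 other genes chosen by the smallest p of each list, 22 had an estimate that moved by over 1.5 times when 1 library was left out. Same-numbered libraries of the groups did not deviate together (correlations of deviations -0.587, -0.553 and 0.0565 for numbers 1, 2 and 3). MDL-800 2 and control 1, the libraries with Y-linked reads, had a correlation of 0.771. Since deviations were centred within 3 and 4 libraries and followed this split, they cannot decide whether the numbers mark a pairing. With a replicate block, which takes no estimate from control 4, the median of the 10 was 0.44, 0 genes passed, and 192 genes had an unadjusted p under 0.05, against 553 without the block. With summed reads as the denominator 630 of 776 genes under an unadjusted p of 0.05 were higher, against 368 of 553 with the deposited one, and the median of the 10 was 0.64. With 3 and 4 libraries, the 95% intervals of the 10 genes span 0.76 (Srebf1) to 3.35 (Acacb) on the log2 scale.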

Other observations

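The neighbours of Elovl5 on chromosome 9 were chosen for report after their values were seen. Within 250 kb on either side of Elovl5, 10 other genes were tested, and in 4 of them (Gm34654, Gm19572, Gm47789 and Rn7sk) every MDL-800 library was above every control, as for 4.03% of all genes tested. Gm47789 was at 1.29 to 1.45 FPKM in MDL-800 and 0.580 to 1.25 FPKM in control, and Rn7sk at 1.924 to 2.93 FPKM in MDL-800 and 0.615 to 1.920 FPKM in control, so both were low and lay close to overlap. Gm34654, a long noncoding RNA gene that ends 107.6 kb before Elovl5 starts, was at 3.57, 8.06 and 8.52 FPKM in MDL-800, against 0.387, 0.192, 0.264 and 0.634 FPKM in control. Its log2 fold change was 2.43 (standard error 0.27, limma adjusted p = 0.333). With 1 library left out its limma adjusted p ran from 0.0308 (without MDL-800 1) to 0.984 (without MDL-800 3), and it was 0.962 without MDL-800 2. The processed pseudogene Gm19572, 65.3 kb before Elovl5, was at 8.91, 24.9 and 12.3 FPKM in MDL-800, against 6.73, 0.608, 1.25 and 0.803 FPKM in control, with a log2 fold change of 2.498 (standard error 0.60). Gclc, which encodes the catalytic subunit of glutamate-cysteine ligase, is 122.9 kb before Elovl5 and overlapped between groups at 109, 145 and 117 FPKM in MDL-800, against 142, 70.9, 63.3 and 50.6 FPKM in control. On the other side, Fbxo9, 97 kb away, was at 17.5, 26.1 and 18.7 FPKM in MDL-800, against 20.5, 13.2, 19.8 and 13.7 FPKM in control, and Ick was at an estimate of -0.02. In the fit of all 7 libraries none of these genes passed an adjusted p of 0.05, a relation between the neighbours was not tested, and reads of a processed pseudogene may belong to its parent gene.

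Some genes commonly read together with lipogenesis are given as values, and a relation to the 10 was not tested. Thrsp, the Spot 14 gene, was at 31.8, 134 and 95.3 FPKM in MDL-800, against 32.9, 48.1, 221 and 55.1 FPKM in control. From the lowest up, MDL-800 1, control 1, control 2 and control 4 came first, in the same order as for Fasn. Control 3 was the highest for Thrsp but lay below MDL-800 2 and MDL-800 3 for Fasn. Pnpla3, a SREBP-1c target, was at 2.69, 1.705 and 12.8 FPKM in MDL-800, against 0.401, 12.7, 43.5 and 1.75 FPKM in control. As with Acacb, control 3 held the highest value of both. Both genes were chosen after their values were seen.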
